A study of Mus musculus with 12 samples.

Results

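The VEGF and angiopoietin system of the ovarian vessels was followed through 10 genes: the ligands Vegfa, Vegfc, Angpt1 and Angpt2, the receptor tyrosine kinases Kdr, Flt1, Flt4, Tek and Tie1, and the co-receptor Nrp1. The genes were chosen by name as ligands and endothelial receptors of both pathways, and all 10 symbols were found among the 24255 genes of the deposited table. RNA was sequenced from whole ovaries of C57BL/6 mice at 6 months of age. The groups were wild type (WT, n = 7 libraries) and CKO (n = 5 libraries), in which Cre recombinase under the Gdf9 promoter deletes Mtor in oocytes. Mice of both groups had received 5 IU of eCG, equine chorionic gonadotropin, 46 h before collection. The Gdf9 promoter is active in oocytes, and vessel, follicle and stroma cells of CKO ovaries keep the gene by design. The labels do not say which floxed or Cre alleles the WT mice carried. They do not tie libraries to animals either, and p-values therefore reflect only how these libraries vary, which may be technical.

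VEGF-A, the product of Vegfa, is the main growth factor of blood vessel endothelium and signals through VEGFR2 (Kdr), while VEGFR1 (Flt1) binds it tightly and acts largely as a decoy. VEGF-C (Vegfc) signals through VEGFR3 (Flt4), the receptor of lymphatic endothelium. Angiopoietin 1 (Angpt1) activates the receptor TIE2 (Tek) and keeps vessels quiescent, angiopoietin 2 (Angpt2) can oppose it, and TIE1 is a related receptor without a strong ligand of its own. In the ovary, vessels grow with each follicle and corpus luteum, and granulosa and luteal cells are known sources of VEGF-A.

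The promoters of the 3 members that passed the test between genotypes, Vegfc, Vegfa and Tek, are shown to set the genes side by side. Each is the 250 bases before the transcription start, from RefSeq on GRCm38.p6. RefSeq promoters were found for 8 of the 10 members. Vegfc is at chr8:54077282-54077531, plus strand, Vegfa at chr17:46032378-46032627, minus strand, and Tek at chr4:94739039-94739288, plus strand. Capitals mark the SP1 box GGGCGG or its reverse complement CCGCCC.
Vegfc: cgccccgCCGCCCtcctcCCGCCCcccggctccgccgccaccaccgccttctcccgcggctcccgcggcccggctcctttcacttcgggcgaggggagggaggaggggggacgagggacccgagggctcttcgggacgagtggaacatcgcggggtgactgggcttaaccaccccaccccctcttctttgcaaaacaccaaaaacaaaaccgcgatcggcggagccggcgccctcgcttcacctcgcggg
Vegfa: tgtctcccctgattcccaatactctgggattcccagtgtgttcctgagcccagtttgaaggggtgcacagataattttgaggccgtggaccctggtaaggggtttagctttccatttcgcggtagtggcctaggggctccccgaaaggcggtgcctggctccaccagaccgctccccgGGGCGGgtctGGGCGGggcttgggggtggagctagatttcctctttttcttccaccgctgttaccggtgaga
Tek: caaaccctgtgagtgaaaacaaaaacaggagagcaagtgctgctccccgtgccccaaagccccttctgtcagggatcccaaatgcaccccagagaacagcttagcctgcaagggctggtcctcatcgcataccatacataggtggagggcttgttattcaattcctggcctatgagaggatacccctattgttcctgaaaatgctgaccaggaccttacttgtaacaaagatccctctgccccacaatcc
The SP1 box occurred 2 times in the Vegfc window and 2 times in the Vegfa window, and it did not occur in the Tek window. In windows of members that did not pass, not printed here, it occurred 3 times in Flt1 and in Flt4, 2 times in Kdr and 1 time in Nrp1, and not in Tie1. It was found in 32.7% of 32851 mouse promoter windows of this length. The hypoxia-inducible factor core ACGTG was found in 16.6% of these windows and the ETS core AGGAAG in 29.5%, on either strand, and neither occurred in the 3 windows printed. The ETS core occurred 2 times in the Flt1 window and 1 time each in those of Nrp1 and Tie1. RefSeq lists a second Vegfa promoter, at chr17:46025164-46025413 within the gene and not printed here, which holds 1 ACGTG core and 1 SP1 box. Motifs were only counted as letters in these windows, and whether any acts in the ovary was not tested. GC content was 71.6% in Vegfc, 59.2% in Vegfa and 51.2% in Tek.

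Values are FPKM, read fragments scaled by transcript length and library size, which allows levels to be compared between genes. Depth, judged from low values, differed by up to 2.18-fold among the 12 libraries, and the upper quartile of FPKM lay between 12.9 and 13.2. Of 17 endothelial markers tested 13 did not pass the test between genotypes, and Pecam1 and Cdh5, the defining endothelial adhesion molecules, averaged 34.7 ± 9.73 and 41.1 ± 11.6 FPKM (WT, SD, n = 7) and 46.2 ± 7.16 and 41.3 ± 7.39 FPKM (CKO, SD, n = 5), so endothelial RNA was present in both genotypes. Mtor itself, deleted only in oocytes, was at 4.70 ± 0.702 (WT, SD, n = 7) and 5.02 ± 0.499 FPKM (CKO, SD, n = 5) in the whole ovary, which holds few oocytes, and its level did not check the labels. Of 10 tested oocyte genes 6 fell and 0 rose, against 7.59% of all genes lower. With 1 library left out, 4 to 7 fell. Without both CKO replicates 2 and 3, 4 fell and 1 rose. The endothelial score, the mean log2(FPKM + 1) of the 17 endothelial markers, ranged from 4.10 to 5.01 in WT and from 4.76 to 5.23 in CKO. The WT library without a replicate number of its own, called the unnumbered WT library, had the lowest endothelial score. Its theca and luteal score was 5.81, against 8.43 to 9.04 in the other WT libraries. It was the lowest WT library for 7 of the 10 members, so results are also given without it where it mattered. CKO replicates 1 and 5 had the highest blood scores, 5.31 in each, and CKO replicates 2 and 3 the highest levels of the oviduct gene Ovgp1. In a whole organ, fewer cells of a type and less RNA per cell cannot be told apart.

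Vegfc and Tek were higher in CKO ovaries and Vegfa was lower. These 3 of the 10 members passed limma on log2(FPKM + 1) with Benjamini-Hochberg adjustment at 0.05, against 16.3% of the 13168 genes tested, and 5 members had an unadjusted p under 0.05. Higher levels were called for 2 members (8.7% of all genes) and a lower level for 1 (7.59% of all genes). The genotypes did not overlap for Vegfc and Tek, 2 of the 10 members, against 7.73% of all genes. The median log2 difference between CKO and WT was 0.25 over the 10 members and -0.01 over all genes tested.

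**Figure D1:**
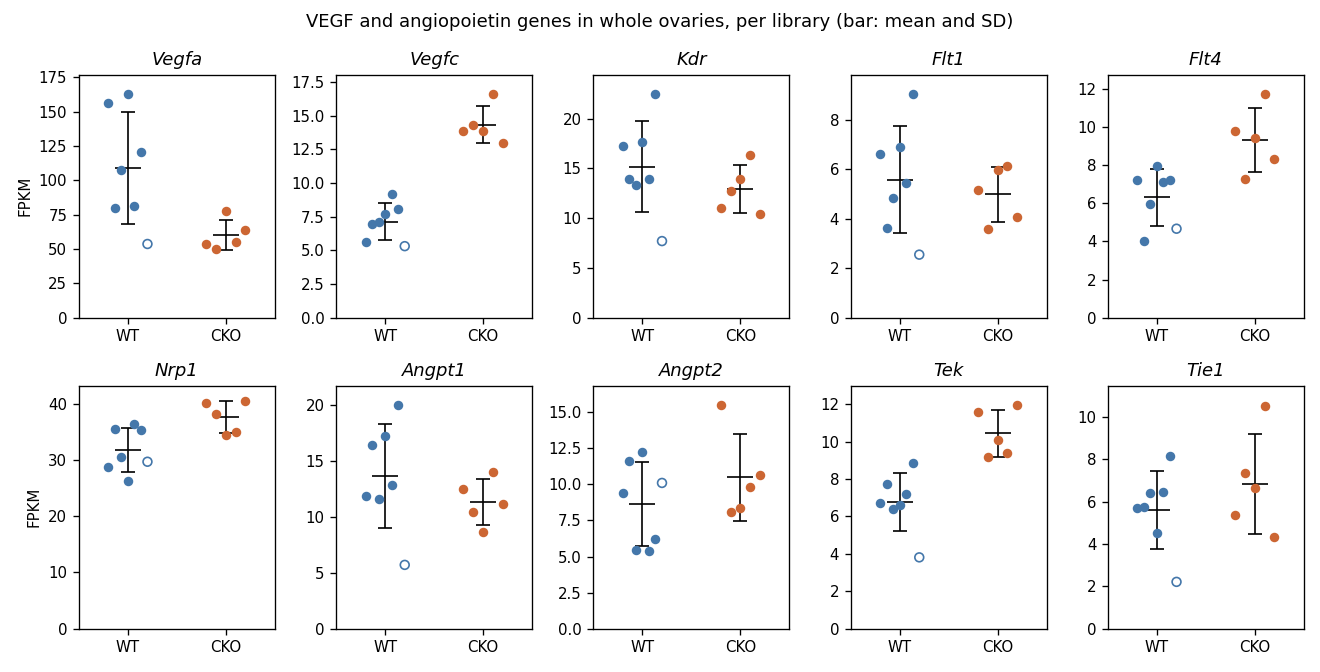
FPKM of the 10 members in each of 7 WT and 5 CKO libraries (points), with the mean and SD (bars). The open circle is the unnumbered WT library. All CKO libraries lie above all WT libraries for Vegfc (12.96 FPKM or more against 9.21 or less) and for Tek (9.18 or more against 8.84 or less), while the other 8 genes overlap.

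Vegfa was the most abundant member in both genotypes, with Nrp1 next, and both were separated from the genes around them in every library of either group. Vegfa, the main blood vessel ligand (chromosome 17, 46016993 to 46032369, minus strand, GENCODE M21 on mm10), ranged from 53.7 to 163 FPKM in WT with a median of 107 FPKM. It was at 53.8, 50.1, 78.0, 55.2 and 64.0 FPKM in CKO replicates 1 to 5. The lowest WT value came from the unnumbered library, which lay among the CKO values, while the other WT libraries were at 79.5 FPKM or more and all CKO libraries at 78.0 FPKM or less. The mean was 109 ± 40.7 (WT, SD, n = 7) and 60.2 ± 11.2 FPKM (CKO, SD, n = 5), a ratio of 0.554. The log2 difference was -0.77 with an SE of 0.24 (adjusted p = 0.0407, limma). The exact two-sided permutation test of the 12 values gave p = 0.0253. Without the unnumbered WT library the difference was -0.92 (adjusted p = 0.006, limma). The call was lost when WT replicate 1, 3, 4 or 7 or CKO replicate 1, 2, 4 or 5 was left out, with adjusted p of 0.0639 to 0.0858 (limma), while the difference stayed between -0.79 and -0.66 in these 8 fits.

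Genes of granulosa cells, a known source of VEGF-A, were lower in the same CKO libraries. Of 14 granulosa genes, 13 fell and 0 rose, against 7.59% of all genes lower, with a median log2 difference of -2.05. The granulosa score ranged from 6.54 to 7.51 in WT and from 4.27 to 5.80 in CKO. Of 10 theca and luteal genes 1 fell and 0 rose, and without the unnumbered WT library 4 fell and 0 rose. The part of these cell populations in the Vegfa difference was not tested. Among 15 tested genes of the hypoxia response, which induces Vegfa, Ndrg1 rose, from 16.4 ± 4.20 to 39.5 ± 5.34 FPKM, and 0 fell. Of all genes tested 16.3% were called. Hif1a, the oxygen-regulated subunit of the hypoxia-inducible factor, was at 70.2 ± 9.59 (WT, SD, n = 7) and 57.5 ± 6.12 FPKM (CKO, SD, n = 5), short of the threshold at an adjusted p of 0.0968 (limma). The median log2 difference of the hypoxia genes was -0.07, and 7 of the 15 were above 0. With sample weights or without CKO replicate 2, 1 hypoxia gene rose and 1 fell. Without WT replicate 2, 2 rose and 0 fell.

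Vegfc, the lymphatic ligand, was about 2.01 times as high in CKO as in WT. Vegfc (chromosome 8, 54077606 to 54187096, plus strand) spanned 5.31 to 9.21 FPKM across WT with a median of 7.11 FPKM. In CKO replicates 1 to 5 it was at 13.8, 14.3, 13.9, 16.6 and 12.96 FPKM. Every CKO library lay above every WT library, and the spread within each group was small, with means of 7.14 ± 1.36 FPKM (SD, n = 7) and 14.3 ± 1.37 FPKM (SD, n = 5). The log2 difference was 0.93 with an SE of 0.13 (adjusted p = 0.000548, limma). The exact two-sided permutation test gave p = 0.0013, the smallest that 792 arrangements of the libraries can give. The call was made in 12 of 12 fits that left out 1 library, with differences of 0.87 to 0.98. In WT, Vegfc was the sixth most abundant member and its range overlapped those of its neighbors Angpt2 and Tek. In CKO it was the third, below Nrp1 without overlap and overlapping Kdr.

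The receptor of VEGF-C, Flt4 (chromosome 11, 49609263 to 49652739, plus strand), was at 3.99 to 7.95 FPKM in WT with a median of 7.09 FPKM. In CKO replicates 1 to 5 it was at 9.79, 7.25, 9.41, 11.7 and 8.30 FPKM. Only CKO replicate 2 lay within the WT range. The log2 difference of 0.51 (SE 0.17) narrowly missed the threshold (adjusted p = 0.0506, limma), and the exact two-sided permutation test of the 12 values, unadjusted, gave p = 0.0101. It passed without WT replicate 4 (adjusted p = 0.0441, limma) and without CKO replicate 2 (adjusted p = 0.0365, limma). The 95% interval of the difference ran from 0.15 to 0.86.

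Other genes of VEGF-C signaling and of lymphatic endothelium were compared alongside. VEGF-C is made as a precursor that the protease ADAMTS3 cleaves with the help of the secreted protein CCBE1. Adamts3 rose, from 0.559 ± 0.243 (WT, SD, n = 7) to 2.44 ± 0.311 FPKM (CKO, SD, n = 5), with a log2 difference of 1.15 (SE 0.17, adjusted p = 0.000625, limma). Its WT values, 0.781 FPKM or less, rest on few fragments, and its CKO values were all at 2.03 FPKM or more. Adamts3 reached the 1 FPKM filter only in the 5 CKO libraries, so it was tested only because it was high there. Ccbe1 was at 20.1 ± 2.56 and 17.7 ± 2.82 FPKM, short of the threshold at an adjusted p of 0.328 (limma). Of 6 lymphatic markers tested, 4 rose and 0 fell, against 8.7% of all genes higher. The median log2 difference of the 6 was 1.10. The genotypes did not overlap for these 4 that rose, against 7.73% of all genes. The list was chosen with earlier results of these data known.

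The 4 markers were Ccl21a, Lyve1, Mmrn1 and Reln. Ccl21a, a chemokine of lymphatic vessels, was at 45.3 ± 11.8 (WT, SD, n = 7) and 209 ± 76.3 FPKM (CKO, SD, n = 5). Its reads cannot be told apart with certainty from those of near-identical copies. Lyve1, a hyaluronan receptor of lymphatic endothelium that some macrophages also carry, was at 7.40 ± 1.88 and 29.6 ± 9.45 FPKM. Mmrn1, which encodes multimerin 1, was at 10.6 ± 2.05 and 31.3 ± 9.75 FPKM. Reln, which encodes the secreted glycoprotein reelin, was at 0.830 ± 0.378 and 2.06 ± 0.483 FPKM. It passed the 1 FPKM filter only with the help of the CKO libraries, all at 1.67 FPKM or more. Their log2 differences lay between 0.76 and 2.15, with adjusted p of 0.000212 to 0.0114 (limma), and each was called in 12 of 12 fits that left out 1 library. Prox1, the transcription factor that defines lymphatic endothelium, was at 1.055 ± 0.516 and 1.82 ± 0.681 FPKM, short of the threshold at an adjusted p of 0.17 (limma), nor did Pdpn (adjusted p = 0.217, limma). Macrophage genes moved with this group, since 9 of 12 rose and 0 fell, against 8.7% of all genes higher. The macrophage score was 3.73 to 5.00 in WT and 5.33 to 6.40 in CKO. Its part in the Lyve1 difference was not tested. Without CKO replicates 1 and 5, whose macrophage scores were highest, 4 lymphatic markers and 6 macrophage genes were called. All genes called fell from 2144 to 1375 in this subset. The CKO libraries kept still had macrophage scores of 5.33 to 5.78, above every WT library, so the subset cannot separate the 2 kinds of genes.

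**Figure D2:**
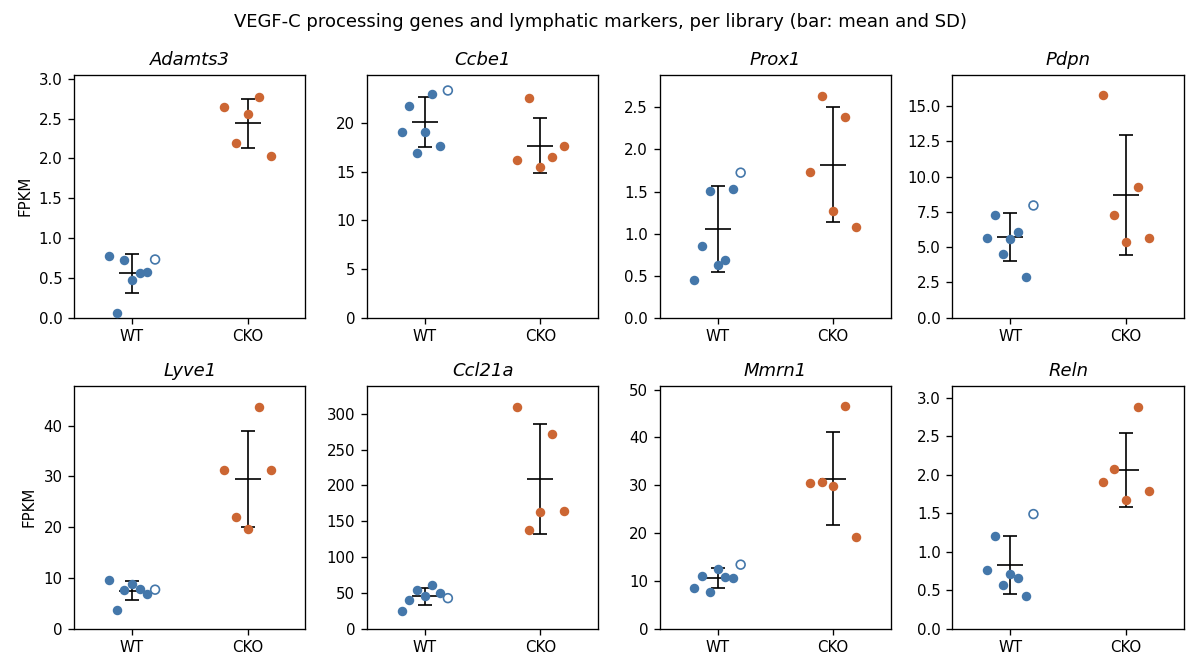
FPKM of 2 genes of VEGF-C processing (Adamts3, Ccbe1) and 6 lymphatic markers in each of 7 WT and 5 CKO libraries (points), with the mean and SD (bars). The open circle is the unnumbered WT library. Adamts3, Lyve1, Ccl21a, Mmrn1 and Reln separate the genotypes without overlap, while Ccbe1, Prox1 and Pdpn overlap. Adamts3 and Reln were tested only because the CKO libraries reached 1 FPKM.

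The receptors of VEGF-A did not pass the test. Kdr, the main signaling receptor (chromosome 5, 75932827 to 75978458, minus strand) spanned 7.70 to 22.5 FPKM across WT with a median of 13.96 FPKM. In CKO replicates 1 to 5 it was at 10.98, 12.7, 13.98, 16.4 and 10.4 FPKM, all within the WT range. The log2 difference was -0.18 with a 95% interval of -0.61 to 0.25 (adjusted p = 0.592, limma). Flt1, the decoy receptor (chromosome 5, 147561604 to 147726011, minus strand) spanned 2.55 to 9.02 FPKM across WT with a median of 5.44 FPKM. It was at 5.16, 3.58, 5.95, 6.13 and 4.08 FPKM in CKO replicates 1 to 5, again within the WT range, and the difference was -0.09 with an interval of -0.58 to 0.41. Both receptors were lowest of all 12 libraries in the unnumbered WT library and highest in WT replicate 7, and without the unnumbered library their differences were -0.32 and -0.22 (adjusted p = 0.17 and 0.49, limma). Nrp1, the neuropilin that enhances VEGF-A binding to VEGFR2 and is also made by stromal and myeloid cells (chromosome 8, 128358604 to 128503363, plus strand) spanned 26.3 to 36.5 FPKM across WT with a median of 30.6 FPKM. In CKO replicates 1 to 5 it was at 40.2, 38.2, 34.5, 35.0 and 40.4 FPKM. CKO replicates 1, 2 and 5 lay above all WT libraries and the other two within the WT range, and the difference of 0.24 (SE 0.10) did not pass (adjusted p = 0.119, limma), with an unadjusted p = 0.0215 in the exact permutation test.

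Of the angiopoietin receptors Tek rose and Tie1 did not pass. Tek (chromosome 4, 94739289 to 94874976, plus strand) spanned 3.81 to 8.84 FPKM across WT with a median of 6.74 FPKM. In CKO replicates 1 to 5 it was at 11.6, 9.18, 10.1, 9.41 and 11.96 FPKM, above every WT library, though CKO replicate 2 and the highest WT library were close. The log2 difference was 0.58 (SE 0.16, adjusted p = 0.0217, limma). The exact two-sided permutation test gave p = 0.0025. The 2 highest values came from CKO replicates 1 and 5. The call was lost without CKO replicate 1 (adjusted p = 0.0546, limma) or CKO replicate 5 (adjusted p = 0.0577, limma), and without both the difference was 0.47 (adjusted p = 0.145, limma). Without the unnumbered WT library, the lowest of all for Tek, it was 0.47 (adjusted p = 0.016, limma). Tie1 (chromosome 4, 118471191 to 118490061, minus strand) spanned 2.205 to 8.15 FPKM across WT with a median of 5.74 FPKM. It was at 5.38, 7.34, 6.63, 10.5 and 4.33 FPKM in CKO replicates 1 to 5, and only CKO replicate 4 lay outside the WT range. The difference was 0.26 with a 95% interval of -0.26 to 0.78 (adjusted p = 0.516, limma).

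Neither angiopoietin passed the test. Angpt1, the TIE2 agonist made largely by mural and stromal cells (chromosome 15, 42424723 to 42676977, minus strand) spanned 5.68 to 19.95 FPKM across WT with a median of 12.8 FPKM. In CKO replicates 1 to 5 it was at 12.5, 10.4, 8.61, 13.99 and 11.1 FPKM, all within the WT range, and the log2 difference was -0.19 with a 95% interval of -0.68 to 0.31 (adjusted p = 0.638, limma). Its exons share 737 bases with Gm17473 on the opposite strand, and without stated use of strand reads of the pair cannot be told apart there. Angpt2, the context-dependent TIE2 antagonist released by activated endothelium (chromosome 8, 18690263 to 18741562, minus strand) spanned 5.36 to 12.3 FPKM across WT with a median of 9.43 FPKM. It was at 15.6, 8.07, 8.34, 9.84 and 10.6 FPKM in CKO replicates 1 to 5, with only replicate 1 outside the WT range. The difference was 0.28 with an interval of -0.19 to 0.75 (adjusted p = 0.437, limma). Angpt2 lies inside Mcph1 on the opposite strand without shared exon bases, and Mcph1 was at 7.27 ± 1.56 (WT, SD, n = 7) and 5.84 ± 0.613 FPKM (CKO, SD, n = 5).

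Ratios within a library set paired members against each other, and 3 were compared by exact two-sided permutation tests of log2(FPKM + 1) differences, adjusted over the 3. The Angpt2 to Angpt1 ratio ranged from 0.312 to 1.78 in WT with a median of 0.709, and from 0.703 to 1.24 in CKO with a median of 0.960. On the log2 scale CKO was higher by 0.47, which did not pass (exact permutation p = 0.221, adjusted p = 0.3314). The unnumbered WT library gave the highest ratio of all, and without it the difference was 0.68 (exact permutation p = 0.0346, adjusted p = 0.1039). The Tek to Tie1 ratio had medians of 1.19 in WT and 1.52 in CKO, with CKO spread from 0.894 to 2.76 (exact permutation p = 0.197, adjusted p = 0.3314). The highest 2 came from CKO replicates 1 and 5, and without both the log2 difference turned from 0.32 to -0.04 (exact permutation p = 0.825, adjusted p = 0.9917). It was 0.22 without CKO replicate 1 and 0.15 without CKO replicate 5. Without CKO replicate 4, the lowest, it was 0.51 (exact permutation p = 0.0273, adjusted p = 0.0818). The Flt1 to Kdr ratio had medians of 0.383 and 0.391 (exact permutation p = 0.4116, adjusted p = 0.4116), and its log2 difference was 0.10 against SDs of 0.17 in WT and 0.23 in CKO.

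**Figure D3:**
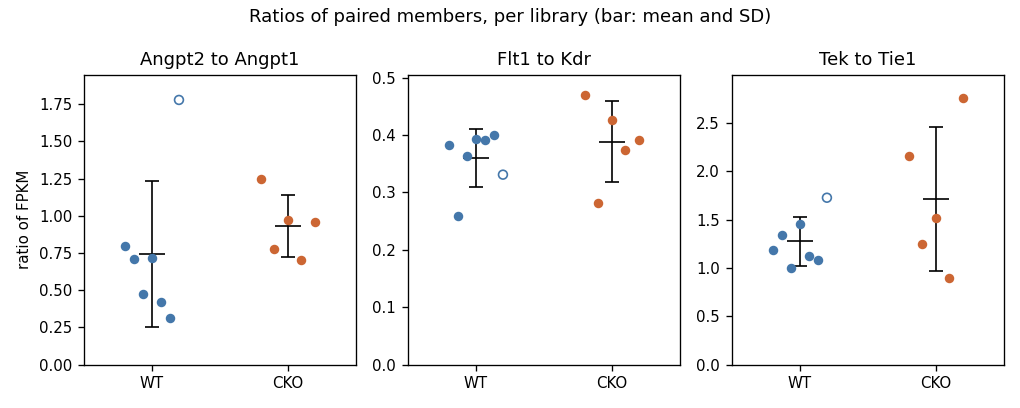
Ratio of FPKM of Angpt2 to Angpt1, Flt1 to Kdr and Tek to Tie1 in each of 7 WT and 5 CKO libraries (points), with the mean and SD (bars). The open circle is the unnumbered WT library, which has the highest Angpt2 to Angpt1 ratio at 1.78, and the genotypes overlap in all 3 ratios.

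Endothelial markers were on average higher in CKO, so members were also compared relative to the endothelial score of the same library. Of the 17 tested markers 4 rose and 0 fell, against 8.7% of all genes higher, with a median log2 difference of 0.35. The 4 were Plvap, a protein of endothelial fenestrae, at 24.1 ± 6.99 (WT, SD, n = 7) and 72.0 ± 34.6 FPKM (CKO, SD, n = 5), Robo4, Cldn5 and Sox17. The calls of Cldn5 and Sox17 were kept in only 5 and 3 of the 12 fits that left out 1 library. After the score was subtracted, the median of all genes was -0.35, and 313 genes were higher and 2331 lower at an adjusted p under 0.05. Against 17.7% of all genes lower and 2.38% higher (20.1% in all), 1 member was lower and 1 higher. Vegfa was lower by -1.11 (SE 0.21, adjusted p = 0.000962, limma) and Vegfc higher by 0.58 (SE 0.20, adjusted p = 0.041, limma). The Vegfc call on this scale was lost in 8 of the 12 fits that left out 1 library, with adjusted p of up to 0.0883. Tek differed by 0.24 (adjusted p = 0.376, limma) and Flt4 by 0.16 (adjusted p = 0.536, limma), so neither was called relative to the markers. Kdr differed by -0.53 (adjusted p = 0.0553, limma) and Angpt1 by -0.53 (adjusted p = 0.072, limma). With the unnumbered WT library left out both passed (adjusted p of 0.0273 and 0.0262, limma), and Kdr also without WT replicate 3 (adjusted p = 0.0452, limma).

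**Figure D4:**
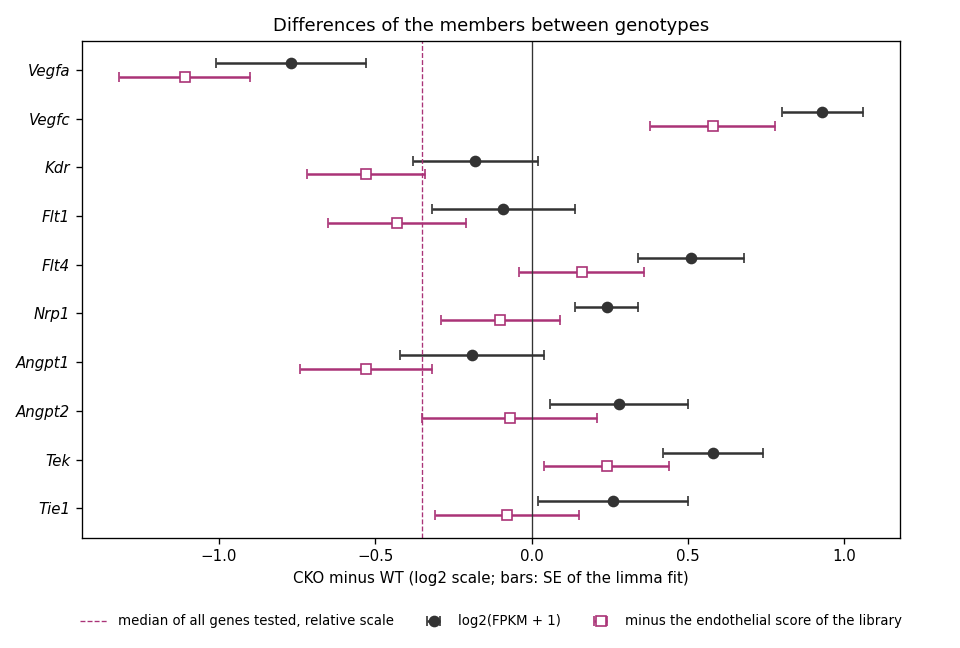
Difference between CKO and WT for each member on the log2(FPKM + 1) scale (filled circles) and after subtracting the endothelial score of each library (open squares), with SE from limma. The dashed line is the median of all genes on the relative scale, -0.35. Vegfa lies lowest and Vegfc highest on both scales.

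Within the pathway, 21 further genes were listed and 19 could be tested. Adamts3, which passed the filter only through its CKO values, rose and 0 fell, against 16.3% of all genes called. The median log2 difference of the 19 genes was -0.08, against -0.01 over all genes. The count moved when 1 library was left out. It was 3 higher without CKO replicate 2, 2 higher without CKO replicate 3 or WT replicate 6, and 2 higher with 1 lower without WT replicate 3. It was 1 higher with 1 lower without WT replicate 2 or the unnumbered WT library. Dok2, an adaptor recruited by activated TIE2, was at 2.97 ± 1.17 (WT, SD, n = 7) and 5.78 ± 2.40 FPKM (CKO, SD, n = 5), adjusted p = 0.0504 (limma). Sema3c, a semaphorin that binds neuropilins and plexin D1, was at 15.9 ± 7.43 and 9.14 ± 2.02 FPKM, adjusted p = 0.0692 (limma). Vegfb, a ligand of VEGFR1, was at 22.6 ± 3.42 and 29.7 ± 5.94 FPKM, adjusted p = 0.108 (limma). None of these 3 passed with all libraries.

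The authors' deposited table, whose fold changes equal CKO over WT for all 10 members within 0.01, lists Vegfa at -0.85 (q = 0.0006), Vegfc at 1.00 (q = 0.00158), Tek at 0.63 (q = 0.00707) and Flt4 at 0.56 (q = 0.0131). In the authors' deposited table the q of the other 6 members is 0.298 or more.

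The variation among libraries of the same group was compared between members. After the group means were removed, the Pearson correlation over the 12 libraries had a median of 0.48 over the 45 pairs of members and was below 0 in 11 pairs. It was highest at 0.89 between Kdr and Flt1, followed by 0.86 between Flt1 and Flt4, 0.83 between Kdr and Tie1 and 0.82 between Angpt1 and Tek. The lowest were -0.51 between Angpt2 and Tie1, -0.44 between Vegfc and Angpt2 and -0.43 between Vegfa and Nrp1. Values of a library share its tissue makeup and scaling, so these are descriptions. The unnumbered WT library was the lowest of all 12 libraries for 6 members, and no correlation was computed without it. With the endothelial score the correlation was 0.76 for Kdr, 0.82 for Flt1, 0.74 for Flt4, 0.73 for Tie1, 0.71 for Angpt1 and 0.61 for Tek. It was 0.59 for Vegfc and 0.54 for Vegfa, but 0.09 for Nrp1 and -0.36 for Angpt2. Vegfa varied most like Rundc3a, Gnaz and Coq2 (0.92 to 0.93), and Vegfc most like Mtmr6, Ocln and Ppt1 (0.86 to 0.91). Kdr was closest to Ndufs1, Hhex and Arel1 (0.91 to 0.95) and Flt1 to Hhex, 2300009A05Rik and Mbd2 (0.91 to 0.94). The nearest genes of Tie1 were Aplnr, the apelin receptor of endothelium, Socs3 and Mmrn2, an endothelial matrix gene (0.88 to 0.92). Tek was nearest to Coq10b, Uso1 and Rdh13 (0.95 to 0.96), Flt4 to Gm11744, Rasip1 and Emc4 (0.89 each), and Nrp1 to Elavl1, Cep170 and Gdf3 (0.86 to 0.88). Angpt1 was nearest to Lgalsl, Tiparp and Rbm3 (0.90 to 0.94) and Angpt2 to Gbx2, Il2rb and Ahcy (0.88 to 0.94).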

How the data were processed

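Polyadenylated ovarian RNA was sequenced as 7 WT and 5 CKO paired-end libraries. Per the submitters' processing notes the authors aligned reads to mm10 with TopHat2 2.0.13, used Cufflinks 2.2.1 for FPKM, and ran Cuffdiff between genotypes. Their annotation, scaling and strand settings were not stated in the labels. In the deposited table each gene symbol has FPKM per library, plus a log2 fold change with p-value and q-value by the authors, which were only quoted. Columns were matched to samples by label, and 1 WT column matched 2 WT samples and entered without a number. FPKM are not counts, and total depth is not known. Relative depth came from ratios of values below 1 FPKM. Genes with at least 1 FPKM in at least 5 libraries (13168) were tested with limma 3.58.1 in R 4.3.3 on log2(FPKM + 1) with a trended prior, two-sided, adjusted by Benjamini-Hochberg over all of them. Fold changes on this scale understate low genes. The test was also run on simulated data in which genes varied independently of each other. Effects of tissue makeup shared by many genes were not simulated. The relative comparison subtracted the mean of the tested endothelial markers. Genes named beside the members were the called genes of each list, up to 4 by p, the 2 of highest level, 4 of the pathway list by p, and 3 nearest genes per member. Pecam1, Cdh5, Hif1a, Ccbe1, Prox1, Pdpn, Mtor, Mcph1, Rgs5, Notch3 and Cspg4 fall outside this rule and were named with their values seen. Members and lists were chosen with earlier results of these data known. Positions are from GENCODE M21.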

Additional observations from a re-analysis of the deposited data

Results flagged for a closer look

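Of 36 groups of libraries, the 2 genotypes of 18 genes, 3 had a library far from the rest, where about 5% would by chance. Adamts3 was at 0.065 FPKM in WT replicate 2, below the other WT libraries. Sema3c was at 31.7 FPKM in WT replicate 2, above them. Vegfb was at 19.4 FPKM in CKO replicate 2, below the other CKO libraries.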

How the results depend on the processing

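No member changed direction past the threshold under any of the 23 alternatives, which covered pseudocounts, no filter, 2 scalings, weights, the variance prior and libraries left out. Of 230 combinations of member and alternative, 212 stayed on their side of the threshold, 16 lost a call and 2 gained one. Vegfc kept its call in all 23. Vegfa also lost its call with no filter (adjusted p = 0.0631, limma) and with a constant prior variance (adjusted p = 0.0518, limma), without CKO replicates 1 and 5 (adjusted p = 0.134, limma) and without CKO replicates 2 and 3 (adjusted p = 0.0867, limma). Between 1 and 3 members were called when 1 library was left out, and 1 without both CKO replicates 1 and 5, where all genes called fell from 2144 to 1375 and those higher from 1145 to 702. Relative to the endothelial score the 2 calls became 1 with no filter, 1 without both CKO replicates 1 and 5, 5 with sample weights, and 1 to 4 with 1 library left out. No ratio passed in any of 51 alternatives. Replicate numbers are shared between genotypes but the labels give them no meaning, and same-numbered libraries deviated together with correlations of only -0.07 to 0.09 over 4 numbers. With the replicate number as a block, without the unnumbered library, 1374 genes were called, 752 higher and 622 lower. In this block fit Vegfa and Vegfc were called and Tek was not (adjusted p = 0.0945, limma). Levels near 1 FPKM come from few fragments, limiting Adamts3, Reln and Prox1.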

Other observations

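Called genes of 4 further vessel lists are given as values, against 16.3% of all genes called. Of 13 endothelial Notch and tip cell genes, Hey2, a Notch target, fell and 0 rose. Hey2 was at 24.1 ± 6.89 (WT, SD, n = 7) and 8.84 ± 2.93 FPKM (CKO, SD, n = 5), a log2 difference of -1.36 (SE 0.20, adjusted p = 0.000597, limma). Which cells of the whole ovary held the Hey2 RNA was not tested. Hes1, a common Notch target, averaged 42.3 ± 8.38 and 57.3 ± 17.7 FPKM and was not called (adjusted p = 0.214, limma). The median log2 difference of the 13 genes was 0.04, and 8 were above 0. Of 12 tested further growth factors and receptors, Pdgfa and Edn1 rose and Bmpr2 fell. Pdgfa, a platelet-derived growth factor, was at 6.84 ± 2.71 (WT, SD, n = 7) and 12.7 ± 0.970 FPKM (CKO, SD, n = 5). Bmpr2, a receptor of bone morphogenetic proteins, was at 66.5 ± 20.2 and 37.4 ± 5.34 FPKM. The call of Edn1, which encodes endothelin 1, was kept in 3 of the 12 fits that left out 1 library.

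Among 8 inhibitors of vessel growth, Serpinf1, which encodes pigment epithelium-derived factor, rose from 32.8 ± 6.13 (WT, SD, n = 7) to 61.1 ± 17.7 FPKM (CKO, SD, n = 5), and Col18a1, the source of endostatin, fell from 18.6 ± 4.14 to 11.6 ± 1.93 FPKM. Of 11 pericyte and smooth muscle genes, Kcnj8 and Abcc9, subunits of the potassium channel of pericytes, rose and 0 fell. Kcnj8 was at 12.9 ± 1.36 and 20.4 ± 2.61 FPKM and Abcc9 at 7.73 ± 1.03 and 10.8 ± 1.47 FPKM, the latter called in 10 of the 12 fits that left out 1 library. Acta2, smooth muscle actin, averaged 71.6 ± 17.6 and 81.5 ± 34.4 FPKM and was not called (adjusted p = 0.828, limma). Across the 11 genes 7 differences were above 0. Rgs5, Notch3 and Cspg4 differed by -0.64, -0.37 and -0.28 on the log2 scale and were not called (adjusted p of 0.157 to 0.266, limma). Without the unnumbered WT library 2 of the 11 rose and 1 fell, and without CKO replicate 2 it was 3 and 0.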
